A study of Mus musculus with 4 samples.

Results

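The natural killer (NK) cells described here are 168 of the 31209 bone marrow cells that passed the cell filter in 4 single-cell RNA libraries. They are the barcodes with at least 500 genes, at least 1000 unique molecular identifiers (UMIs, 1 for each captured RNA molecule) and at most 10% mitochondrial UMIs that also held 2 or more UMIs of Ncr1, Klrb1c and Klre1 together. Ncr1 encodes the activating receptor NKp46, Klrb1c encodes NK1.1, and Klre1 encodes a lectin-like receptor of NK cells. Cells with 2 or more UMIs of Cd3e, Cd3d and Cd3g together, any UMI of Cd79a or Siglech, or 0.5% or more of their UMIs in Camp and Ngp were left out, which removes T cells, B cells, plasmacytoid dendritic cells and neutrophil precursors. The members were chosen by their UMI counts of these genes, so their levels are a description: the median cell held 19 marker UMIs in B12+Butyrate, 12 in B12, 14 in Butyrate and 13 in Control, and Ncr1 was 954 CPM in B12+Butyrate, 677 in B12, 735 in Butyrate and 526 in Control, in counts scaled to a common library total (counts per 1000000 UMIs, CPM).

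The cells came from lethally irradiated mice that had received a competitive 50:50 mix of CD45.1+ Tet2+/+ and CD45.2+ Tet2+/- marrow. Live CD45.2+ cells were sorted from viably frozen marrow, so the cells analysed are taken to be Tet2+/- by this marker. No sample of Tet2+/+ cells was analysed here. The genotype of single cells was not tested. Treatment began after 1 month of engraftment and lasted 7 months. The B12+Butyrate group was injected intraperitoneally with 0.29 µg of vitamin B12 2 times a week and drank water with 100 mM sodium butyrate. The B12 group had the same injections and 100 mM NaCl in its water, the Butyrate group had PBS injections and 100 mM sodium butyrate, and the Control group had PBS injections and 100 mM NaCl. Each group is 1 library made from the pooled marrow of 3 mice, so differences between the groups have no replicate check and no p-value is given for them. The cKit+ and cKit- fractions were sorted apart and mixed 50:50, so a share below is a share of that mix and not of marrow. The title of the series asks how vitamin B12, through the gut, bears on Tet2-deficient blood formation.

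NK cells are innate lymphocytes that kill virus-infected, transformed or mismatched cells without prior priming. In the mouse they are restrained by inhibitory receptors, chiefly of the Ly49 (Klra) and CD94/NKG2 families, that read class I MHC molecules on other cells, and they are driven by activating receptors that signal through adaptors such as FcεRIγ, DAP12 and the CD3ζ chain. They develop in the bone marrow under interleukin 15 and the transcription factors T-bet (Tbx21) and Eomes, and carry perforin and granzymes in secretory granules. A related innate lymphocyte, the ILC1, shares NCR1, NK1.1 and T-bet, and in the mouse is usually told apart by CD49a (Itga1), CXCR6 and little or no Eomes.

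The NK cells held 324787 UMIs in B12+Butyrate, 251289 in B12, 338699 in Butyrate and 357699 in Control. The median cell had 7246 UMIs in B12+Butyrate, 5251 in B12, 6027 in Butyrate and 7061 in Control. At these totals a gene with no UMI could still have been present at up to 8.39 to 11.9 CPM, the level of 3 counts. A library's sum can hang on a few cells: the richest cell held 3.67% of the NK UMIs in B12+Butyrate, 19.7% in B12, 9.34% in Butyrate and 9.94% in Control. Across the series 127 barcodes occurred in more than 1 library; 2 NK barcodes were among them, and neither was an NK cell in both libraries. A doublet caller marked 4 of the 168 cells. The 3' reads of near-identical Ly49 genes can be assigned to the wrong family member, so values of single Klra genes are less certain than their sum.

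Genes that the rule did not use were found in a larger share of these cells than of T or B cells. Nkg7, a granule protein of cytotoxic lymphocytes, was present in 88.1% of the NK cells, against 35.3% of 802 T cells (2 or more CD3 UMIs and fewer than 2 NK-marker UMIs) and 2.62% of the B cells, which should lack it. After every cell was thinned to 2000 UMIs, which kept 163 NK cells, the shares were 75.5% of NK cells, 26.3% of T cells and 1.02% of B cells. Tyrobp, which encodes DAP12, was present in 93.5% of NK cells, 14.6% of T cells and 17.3% of B cells (after thinning 86.5% of NK, 9.57% of T and 8.62% of B cells). Xcl1, which encodes the chemokine lymphotactin, was present in 80.4% of NK cells, 15.5% of T cells and 0.0305% of B cells (after thinning 66.3% of NK, 9.31% of T and 0.0310% of B cells). Eomes was present in 49.4% of NK cells, 10.6% of T cells and 0.0915% of B cells (after thinning 23.3% of NK, 6.42% of T and 0.0310% of B cells). Median depth was 4369 to 4965 UMIs in T cells and 4570 to 5374 in B cells across the libraries.

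Markers of other cells were mostly low but not absent, and those of monocytes and of progenitors were not low in every library. The summed T cell markers were 563 CPM in B12+Butyrate, 449.7 in B12, 735 in Butyrate and 651 in Control in NK cells, found in 39 of 43 cells in B12+Butyrate, 28 of 35 in B12, 43 of 47 in Butyrate and 35 of 43 in Control, against 2366 to 3093 CPM in T cells and 126 to 213 CPM in B cells. The summed B cell markers were 139 CPM in B12+Butyrate, 123 in B12, 221 in Butyrate and 143 in Control in NK cells, against 19245 to 32183 CPM in B cells. Of these lists Cd4, Cd8a, Cd5, Ms4a1 and Vpreb3 had no UMI in any NK cell. The summed basophil and mast cell markers reached at most 2.80 CPM in a library, and those of ILC2 and ILC3 cells at most 9.24 CPM. The summed neutrophil markers were 459 CPM in B12+Butyrate, 728 in B12, 549 in Butyrate and 1085 in Control, and the T cells carried more of that RNA, with 3202 to 11586 CPM. The summed monocyte and macrophage markers were 831 CPM in B12+Butyrate, 2149 in B12, 1426 in Butyrate and 1088 in Control in NK cells, with 1 cell giving 55 to 85% of them. These markers were 1659 to 2336 CPM in T cells and 1451 to 2143 CPM in B cells. The summed stem and progenitor markers were 117 CPM in B12+Butyrate, 306 in B12, 416 in Butyrate and 3922 in Control, and 1 Control cell gave 93.8% of the Control value. In T cells they were 478 to 2575 CPM and in B cells 522 to 1581 CPM, below the Control value in NK cells.

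The limit on NK-marker UMIs fell in a thinly filled range. Among cells that met every other condition, 97 held 1 marker UMI, 9 held exactly 2, 10 held 3 or 4, 32 held 5 to 9 and 117 held 10 or more. The 9 cells just inside the limit had 22.5 CPM of Nkg7, 22.5 CPM of Ccl5 and no UMI of Xcl1 or Gzma. The 97 cells just outside had 156 CPM of Nkg7, 26.2 CPM of Ccl5 and no UMI of Xcl1. The 117 cells with 10 or more marker UMIs had 1307 CPM of Nkg7, 4250.0 CPM of Ccl5 and 1234 CPM of Xcl1. The 9 cells at the limit thus carried little of the RNA that marked the rest, and they were 1 cell of B12+Butyrate, 2 of B12, 2 of Butyrate and 4 of Control.

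NK cells were a small share of every library. They numbered 43 of 7616 cells in B12+Butyrate (0.565%, exact 95% interval 0.409 to 0.760%), 35 of 8048 in B12 (0.435%, 0.303 to 0.604%), 47 of 6793 in Butyrate (0.692%, 0.509 to 0.919%) and 43 of 8752 in Control (0.491%, 0.356 to 0.661%). All 4 intervals overlap. The ratio of shares was 0.885 for B12 over Control (95% interval of counting error 0.567 to 1.38), 0.816 for B12+Butyrate over Butyrate (0.540 to 1.23), 1.41 for Butyrate over Control (0.932 to 2.13) and 1.30 for B12+Butyrate over B12 (0.832 to 2.03). Each interval includes a ratio of 1, so no difference in NK share was detectable at this number of cells.

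T cells and the cells with both CD3 and NK markers had wider gaps between the libraries. Cells with 2 or more UMIs of the CD3 genes and 2 or more of the NK markers, called CD3+ NK-marker+ cells here, numbered 39 in B12+Butyrate, 35 in B12, 75 in Butyrate and 69 in Control. Their share ratio was 0.552 for B12 over Control (0.368 to 0.828) and 0.464 for B12+Butyrate over Butyrate (0.315 to 0.682). T cells numbered 142 in B12+Butyrate, 107 in B12, 235 in Butyrate and 318 in Control, a share ratio of 0.366 for B12 over Control and 0.539 for B12+Butyrate over Butyrate. NK cells were therefore 23.2% of NK and T cells together in B12+Butyrate, 24.6% in B12, 16.7% in Butyrate and 11.9% in Control. These intervals cover counting error within pooled mice and not differences between mice.

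**Figure D1:**
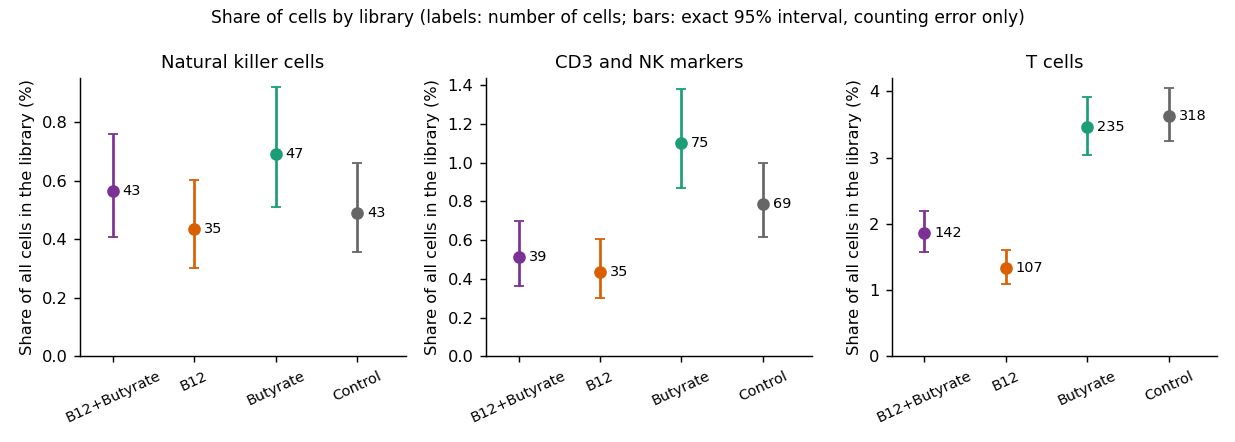
Share of cells (percent of the cells passing the filter, with exact 95% intervals) that were NK cells, CD3+ NK-marker+ cells and T cells in the B12+Butyrate, B12, Butyrate and Control libraries. NK shares lie between 0.435 and 0.692% with overlapping intervals, whereas T cells are fewer in the libraries that received B12.

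The genes that differed between NK cells and T cells of the same libraries included NK receptors, granule proteins and parts of the T cell receptor. UMIs were summed per library and cell type and compared in edgeR's quasi-likelihood test with the library as a block, over 4 libraries and 6670 genes, with the rule genes left out. At a Benjamini-Hochberg adjusted p under 0.05, 527 genes (7.90% of those tested) were higher in NK cells and 554 (8.31%) were lower. The same test against the 218 CD3+ NK-marker+ cells, chosen after the data were seen, called 191 of 5463 genes (3.50%) higher and 170 (3.11%) lower. The spread in these tests is how the difference between the compared cell types varied over 4 pooled libraries that differ in treatment. Levels below are means ± SD over the 4 libraries. Log2 fold changes are given ± a standard error derived from the fold change and the test statistic.

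The Ly49 receptors were among the genes furthest apart. Klra8, which encodes the activating receptor Ly49H that recognises a protein of mouse cytomegalovirus, was 647 CPM in B12+Butyrate, 708 in B12, 558 in Butyrate and 389 in Control in NK cells and had no UMI in T cells. That is at least 897-fold higher in NK cells, with the T cell level set at 3 counts over the 4 libraries. The T cells were chosen to hold few NK-marker UMIs, and cells with more of them were counted apart as CD3+ NK-marker+ cells. The summed Ly49 genes were 411 to 1233 CPM in CD3+ NK-marker+ cells and 37.9 to 123 CPM in T cells. How much of the differences in Ly49 and other NK receptors from T cells follows from that choice was not tested. Klra4, which encodes the activating receptor Ly49D, was 794 CPM in B12+Butyrate, 677 in B12, 791 in Butyrate and 355 in Control in NK cells, and 1 UMI was found in all the T cells. Klra7, which encodes the inhibitory receptor Ly49G, averaged 382 ± 59.2 CPM in NK cells and 11.7 ± 10.1 CPM in T cells (log2 fold change 5.34 ± 0.27, adjusted p = 1.5e-09). All 6 Ly49 genes tested were higher in NK cells, with a median log2 fold change of 5.14, beside 0.00352 for all genes.

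CD3+ NK-marker+ cells held Ly49 RNA too, at lower levels and unevenly. Klra8 averaged 575 ± 139 CPM in NK cells and 104 ± 84.6 CPM in CD3+ NK-marker+ cells (log2 fold change 2.72 ± 0.28, adjusted p = 1.8e-06), and Klra4 averaged 654 ± 207 CPM in NK cells and 118 ± 120.1 CPM in CD3+ NK-marker+ cells (log2 fold change 2.63 ± 0.27, adjusted p = 1.8e-06). Of 7 Ly49 genes tested against these cells, 4 were higher in NK cells (Klra4, Klra8, Klra9 and Klra7), 2 did not pass, and Klra6 was lower, with 10.1 ± 8.10 CPM in NK cells and 62.0 ± 15.3 CPM in CD3+ NK-marker+ cells (log2 fold change -2.57 ± 0.46, adjusted p = 0.001). Klra6 encodes the inhibitory receptor Ly49F. The unnamed genes ENSMUSG00000121360 and ENSMUSG00000121359, for which the files give no symbol, were also higher in NK than in T cells, and ENSMUSG00000121360 averaged 1073 ± 233 CPM in NK cells and 28.8 ± 12.3 CPM in T cells.

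Most lectin-like receptors of the CD94, NKG2 and NKR-P1 families were also higher in NK cells. Of 9 tested, 8 were higher in NK than in T cells and 1 did not pass (median log2 fold change 4.01). Klrd1, which encodes CD94, the shared partner of the NKG2 receptors, averaged 756 ± 164 CPM in NK cells and 67.1 ± 23.6 CPM in T cells (log2 fold change 3.57 ± 0.21, adjusted p = 4.9e-09). Klrk1, which encodes the activating receptor NKG2D, averaged 735 ± 125 CPM in NK cells and 65.5 ± 19.9 CPM in T cells (log2 fold change 3.55 ± 0.16, adjusted p = 4.3e-10). Klrb1b, which encodes the inhibitory receptor NKR-P1B, gave the largest fold among genes named against CD3+ NK-marker+ cells, with 224 ± 91.0 CPM in NK cells and 11.0 ± 16.1 CPM in those cells (log2 fold change 4.52 ± 0.43, adjusted p = 1.1e-06). Klrb1a, Klrb1b, Klrb1f, Klrd1 and Klri2 were higher in NK cells in both comparisons. Klrk1 averaged 634 ± 106 CPM in CD3+ NK-marker+ cells, and its difference there did not pass (log2 fold change 0.16 ± 0.12, adjusted p = 0.57).

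Signalling genes differed in both directions. The adaptor genes Fcer1g and Tyrobp, which serve NK activating receptors, were higher in NK cells: Fcer1g averaged 1242 ± 84.7 CPM in NK cells and 195 ± 63.6 CPM in T cells (log2 fold change 2.74 ± 0.17, adjusted p = 1.4e-08), and Tyrobp averaged 1421 ± 122 CPM in NK cells and 232 ± 56.0 CPM in T cells (log2 fold change 2.66 ± 0.15, adjusted p = 4.1e-09). Both are also abundant in myeloid cells. All 6 neutrophil markers tested were lower in NK than in T cells. Of 5 monocyte and macrophage markers tested, 2 were lower and 3 did not pass. The part of myeloid RNA in the levels of Fcer1g and Tyrobp was not tested. The kinase Syk and the adaptors Lat2 and Sh2d1b1 (the SAP relative EAT-2) were higher as well, as was the phospholipase Plcg2. Genes that relay the T cell receptor signal were lower: Zap70 averaged 44.9 ± 13.9 CPM in NK cells and 109.6 ± 25.6 CPM in T cells (log2 fold change -1.24 ± 0.20, adjusted p = 2.3e-04), Lat averaged 15.9 ± 5.76 CPM in NK cells and 107 ± 12.9 CPM in T cells (log2 fold change -2.63 ± 0.28, adjusted p = 3.6e-06), and Cd247, the CD3ζ chain, averaged 232 ± 39.2 CPM in NK cells and 689.5 ± 120.3 CPM in T cells (log2 fold change -1.53 ± 0.15, adjusted p = 1.5e-06). Of 20 genes of activating receptors and adaptors, 11 were higher in NK than in T cells, 5 lower and 4 did not pass. Against CD3+ NK-marker+ cells 7 of 20 were higher (Fcer1g, Tyrobp, Syk, Lat2, Plcg2, Sh2d1b1 and Cd244a) and 3 lower (Cd247, Zap70 and Lat).

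Granule genes were higher in NK cells, with granzyme A in front. Gzma was 853 CPM in B12+Butyrate, 895 in B12, 475 in Butyrate and 609 in Control in NK cells, and averaged 4.48 ± 5.38 CPM in T cells and 67.0 ± 28.7 CPM in CD3+ NK-marker+ cells. Its log2 fold change was 6.84 ± 0.32 over T cells (adjusted p = 5.4e-10) and 3.31 ± 0.20 over CD3+ NK-marker+ cells (adjusted p = 1.5e-09). Prf1, the pore-forming perforin, averaged 113 ± 33.9 CPM in NK cells, 41.2 ± 12.1 CPM in CD3+ NK-marker+ cells and 16.6 ± 6.98 CPM in T cells (log2 fold change 2.82 ± 0.28, adjusted p = 2.2e-06 over T cells). Gzmb, granzyme B, was low, with 46.3 ± 6.78 CPM in NK cells and 17.3 ± 9.32 CPM in T cells (log2 fold change 1.58 ± 0.38, adjusted p = 0.0085). Gzmk was lower in NK cells, with 2.17 ± 2.70 CPM against 39.1 ± 6.38 CPM in T cells (log2 fold change -3.90 ± 0.57, adjusted p = 1.2e-04). Of 16 granule and death ligand genes tested, 9 were higher than in T cells, 2 lower (Gzmk and the vesicle fusion gene Stx11) and 5 did not pass, and against CD3+ NK-marker+ cells 6 of 15 were higher and 9 did not pass.

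**Figure D2:**
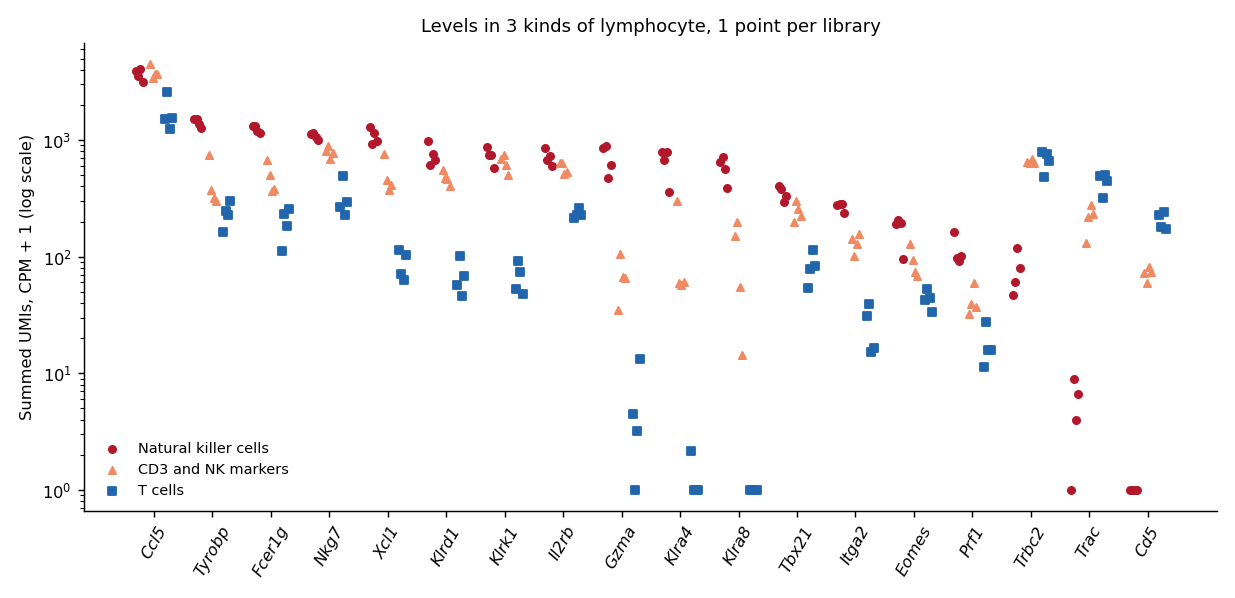
Level (CPM, log axis) of listed genes in NK cells, CD3+ NK-marker+ cells and T cells, with 1 point for each of the 4 libraries. Klra8, Klra4 and Gzma lie far higher in NK cells than in T cells, with CD3+ NK-marker+ cells between them.

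Transcription factors set NK cells apart by degree. Eomes averaged 172 ± 51.7 CPM in NK cells, 90.3 ± 27.0 CPM in CD3+ NK-marker+ cells and 42.1 ± 7.76 CPM in T cells, and was higher in NK cells in both tests (log2 fold change 2.02 ± 0.18, adjusted p = 6.6e-07 over T cells; log2 fold change 0.86 ± 0.20, adjusted p = 0.0077 over CD3+ NK-marker+ cells). Tbx21 averaged 353 ± 47.7 CPM in NK cells and 81.3 ± 24.8 CPM in T cells (log2 fold change 2.14 ± 0.19, adjusted p = 6.8e-07), but its level of 243 ± 43.0 CPM in CD3+ NK-marker+ cells did not differ past the threshold (log2 fold change 0.48 ± 0.15, adjusted p = 0.064). Bcl11b, a T lineage commitment factor, was lower in NK cells, with 36.5 ± 19.1 CPM against 593 ± 59.0 CPM in T cells (log2 fold change -3.92 ± 0.24, adjusted p = 7.9e-09). Of 17 factors tested against T cells, 8 were higher in NK cells (Stat4, Bach2, Runx3, Eomes, Ikzf1, Tbx21, Ikzf3 and Id2), 5 lower (Ikzf2, Gata3, Foxo1, Tox and Bcl11b) and 4 did not pass. Against CD3+ NK-marker+ cells only Eomes was higher, Ikzf2 and Bcl11b were lower, and 14 did not pass.

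Receptors for the cytokines that drive NK cells were partly higher. Il2rb, the β chain shared by the receptors for interleukins 2 and 15, averaged 715 ± 106 CPM in NK cells and 232 ± 19.8 CPM in T cells (log2 fold change 1.65 ± 0.13, adjusted p = 1.3e-07). Il18r1, Il18rap, Il12rb2, Il10ra and Jak1 were also higher in NK cells, Stat5b and the feedback inhibitor Cish were among 3 that were lower, and 9 of the 18 tested did not pass. Il7r was lower, with 164 ± 22.7 CPM in NK cells and 336 ± 67.7 CPM in T cells (log2 fold change -0.96 ± 0.17, adjusted p = 6.3e-04). Among cytokines, Ccl5 was the most abundant, with 3675 ± 386 CPM in NK cells and 1721 ± 574 CPM in T cells (log2 fold change 1.18 ± 0.15, adjusted p = 2.4e-05). Xcl1 averaged 1089 ± 171 CPM in NK cells, 501 ± 179 CPM in CD3+ NK-marker+ cells and 86.8 ± 24.6 CPM in T cells (log2 fold change 3.70 ± 0.16, adjusted p = 2.3e-10 over T cells). Ifng averaged 119 ± 32.2 CPM in NK cells and 62.5 ± 24.1 CPM in T cells (log2 fold change 1.03 ± 0.20, adjusted p = 0.0015). Of 9 cytokine genes tested 5 were higher (Ifng, Ccl5, Ccl3, Ccl4 and Tnf), 1 lower (Ccl6, also made by neutrophils and macrophages) and 3 did not pass.

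Genes of early and of late NK maturation were both present. Itgam (CD11b) averaged 96.6 ± 11.4 CPM in NK cells and 50.4 ± 18.4 CPM in T cells (log2 fold change 1.01 ± 0.22, adjusted p = 0.0039), and Itga2 (CD49b) averaged 269 ± 21.0 CPM in NK cells and 24.4 ± 11.7 CPM in T cells (log2 fold change 3.63 ± 0.22, adjusted p = 7.5e-09). Cd27, a marker of less mature mouse NK cells, averaged 71.6 ± 23.1 CPM in NK cells and 119.7 ± 11.9 CPM in T cells (log2 fold change -0.72 ± 0.19, adjusted p = 0.016). A UMI of both Itgam and Cd27 was found in 24 of the 168 cells, of Itgam alone in 33, of Cd27 alone in 38 and of neither in 73. The chemokine receptor gene Ccr2 was higher than in T cells, whereas S1pr1 and Gpr183, which guide exit and positioning of lymphocytes, were lower. Of 10 late maturation genes 4 were higher and 6 did not pass, and of 17 immature and ILC1-leaning genes 7 were higher, 5 lower and 5 did not pass. Ly6c2 was lower in NK than in CD3+ NK-marker+ cells, with 316 ± 117 CPM in NK cells and 1039 ± 248 CPM in those cells (log2 fold change -1.80 ± 0.14, adjusted p = 3.1e-08).

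T cell genes were lower in NK cells but not all absent. The 10 T cell markers outside the rule still summed to 449.7 to 735 CPM across the NK libraries. Cd5, Cd6 and Cd4 had no UMI, which is at least 85.4-fold lower than in T cells for Cd5, 68.2-fold for Cd6 and 69.5-fold for Cd4, with the NK level set at 3 counts over the 4 libraries. Trac, the constant region of the T cell receptor α chain, averaged 4.13 ± 3.43 CPM in NK cells and 439 ± 83.5 CPM in T cells (log2 fold change -6.72 ± 0.31, adjusted p = 4.8e-10). Trbc2, the constant region of the β chain, averaged 75.6 ± 31.3 CPM in NK cells, 649 ± 25.7 CPM in CD3+ NK-marker+ cells and 672 ± 136 CPM in T cells, and was lower in NK cells in both tests. Themis, a T cell receptor signalling protein, averaged 3.49 ± 6.99 CPM in NK cells and 585 ± 58.8 CPM in T cells (log2 fold change -7.12 ± 0.39, adjusted p = 2.4e-09). Of 10 T cell marker genes tested 9 were lower and 1, Trdc, did not pass, with 41.7 ± 25.4 CPM in NK cells and 44.9 ± 30.3 CPM in T cells.

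Less lineage-bound genes also appeared among the largest differences. Adamts14, which encodes a procollagen processing protease, averaged 214 ± 51.5 CPM in NK cells and 37.0 ± 17.5 CPM in CD3+ NK-marker+ cells (log2 fold change 2.52 ± 0.22, adjusted p = 3.4e-07). Vegfc, a lymphatic growth factor, averaged 151 ± 28.1 CPM in NK cells and 17.8 ± 18.5 CPM in CD3+ NK-marker+ cells (log2 fold change 3.15 ± 0.32, adjusted p = 2.1e-06). Styk1, a kinase-like gene, averaged 166 ± 66.6 CPM in NK cells and 3.75 ± 2.34 CPM in T cells (log2 fold change 5.65 ± 0.30, adjusted p = 2.0e-09), and Itgax (CD11c) averaged 129 ± 17.2 CPM in NK cells and 3.74 ± 0.875 CPM in T cells (log2 fold change 5.10 ± 0.28, adjusted p = 3.0e-09). Retnlg, S100a8 and S100a9, which are neutrophil genes, were lower in NK than in T cells, and the summed neutrophil markers were 459 to 1085 CPM in NK cells and 3202 to 11586 CPM in T cells. With cells of few myeloid UMIs alone, fewer genes could be tested. Of 5001 genes 527 were higher and 524 lower than in T cells. Of 3723 genes 149 were higher and 112 lower than in CD3+ NK-marker+ cells.

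Common programmes differed between NK and T cells to varying degrees, beside 7.90% of all genes tested that were higher and 8.31% that were lower. None of 12 DNA replication and mitosis genes, 6 cobalamin and one-carbon genes or 4 DNA methylation genes passed the edgeR test at the adjusted threshold. At an unadjusted p under 0.05 in edgeR, 2 of 12 replication, 0 of 6 cobalamin and 2 of 4 DNA methylation genes (Tet2 and Tet3) differed. Over all genes, 1794 of 6670 did. DESeq2 called none of the 3 lists' members. Tet2 itself was 61.6 CPM in B12+Butyrate, 67.7 in B12, 88.6 in Butyrate and 103 in Control in NK cells. Of 14 genes of class I MHC presentation, H2-K1, H2-D1, H2-Q6 and H2-Q7 were higher in NK than in T cells and 10 did not pass. Of 14 immediate early genes 3 were lower (Junb, Dusp1 and Egr1), and of 9 heat shock genes 4 were lower (Dnaja1, Hsph1, Hspa1a and Hspa1b). Of 14 interferon response genes 1 was higher, 3 were lower and 10 did not pass, of 14 glycolysis genes 2 were lower, and of 10 NF-kB genes 1, Relb, was lower.

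Within the NK cells, Eomes and the pair Cxcr6 and Itga1 hardly met in the same cell. A UMI of Eomes was found in 83 cells and of Cxcr6 in 35, and 1 cell held both. The grouping that follows was drawn up after these values were seen, so it is a description with no test. Cells with a UMI of Eomes and none of Cxcr6 or Itga1 numbered 81, cells with Cxcr6 or Itga1 and no Eomes numbered 43, cells with both numbered 2 and cells with neither numbered 42. The 43 cells with Cxcr6 or Itga1 and no Eomes have the features by which ILC1 are usually told apart. Whether they are ILC1 was not tested, and they are counted among the NK cells throughout. The median depth was 6730 UMIs in the Eomes cells, 6673 in the Cxcr6 or Itga1 cells and 5628 in the cells with neither. In B cells of these libraries a UMI was found in 0.0915% for Eomes, 0.884% for Cxcr6 and 2.20% for Itga1.

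Ly49 RNA was found in the Eomes cells and in the cells with neither, and was scarce in the Cxcr6 or Itga1 cells. Klra4 was 1128 CPM in the Eomes cells, 432 CPM in the cells with neither, and had no UMI in the Cxcr6 or Itga1 cells. Klra8 was 867 CPM in the Eomes cells and 649.8 CPM in the cells with neither, and Klra7 was 524 CPM in the Eomes cells and 531 CPM in the cells with neither, again with no UMI in the Cxcr6 or Itga1 cells. At least 1 Ly49 gene was detected in 96.3% of the Eomes cells, 20.9% of the Cxcr6 or Itga1 cells and 69.0% of the cells with neither. Granule genes differed in both directions between these cells. Gzma was 1039 CPM in the Eomes cells and 33.3 CPM in the Cxcr6 or Itga1 cells. Nkg7 was 1368 CPM in the Eomes cells and 524 CPM in the Cxcr6 or Itga1 cells, and Prf1 was 139.8 CPM in the Eomes cells and 61.0 CPM in the Cxcr6 or Itga1 cells. The death ligand gene Tnfsf10 (TRAIL) was 31.8 CPM in the Eomes cells and 125 CPM in the Cxcr6 or Itga1 cells. Rab27a, which encodes a granule docking protein, was 74.7 CPM in the Eomes cells and 122 CPM in the Cxcr6 or Itga1 cells, and Lamp1, a lysosome membrane protein gene, was 109.6 CPM in the Eomes cells and 177 CPM in the Cxcr6 or Itga1 cells. Srgn, the granule proteoglycan serglycin, was 967 CPM in the Eomes cells and 909.5 CPM in the Cxcr6 or Itga1 cells. Itga2 was 389 CPM in the Eomes cells and 61.0 CPM in the Cxcr6 or Itga1 cells.

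Other genes were higher in the Cxcr6 or Itga1 cells. Il7r, which encodes the interleukin 7 receptor, was 23.8 CPM in the Eomes cells and 471 CPM in the Cxcr6 or Itga1 cells. The membrane protein gene Tmem176b was 11.1 CPM in the Eomes cells and 255 CPM in the Cxcr6 or Itga1 cells, and the inhibitory receptor gene Cd200r1 was 12.7 CPM in the Eomes cells and 186 CPM in the Cxcr6 or Itga1 cells. The lipid phosphatase gene Inpp4b was 192 CPM in the Eomes cells and 1464 CPM in the Cxcr6 or Itga1 cells, and the zinc finger gene Ikzf2 (Helios) was 39.7 CPM in the Eomes cells and 605 CPM in the Cxcr6 or Itga1 cells. Klrb1b, the receptor that set NK cells apart from CD3+ NK-marker+ cells, was 77.8 CPM in the Eomes cells and 502 CPM in the Cxcr6 or Itga1 cells. Genes of antigen-presenting and myeloid cells were also higher in the Cxcr6 or Itga1 cells than in the Eomes cells. Cd74, the invariant chain of class II MHC, was 50.8 CPM in the Eomes cells. It was 1492 CPM in the Cxcr6 or Itga1 cells, where 17 of 43 cells held it, and 1200 CPM in the cells with neither. Lyz2, which encodes lysozyme, was 152 CPM in the Eomes cells, 1747 CPM in the Cxcr6 or Itga1 cells and 772 CPM in the cells with neither. Lyz2 was uneven within the Cxcr6 or Itga1 cells. It was 92.3 CPM in B12+Butyrate (5 cells), 2947 in B12 (2), 3404 in Butyrate (3) and 1189 in Control (7). The part of these transcripts in the other differences was not tested. Levels were close for Tbx21, with 332 CPM in the Eomes cells and 324 CPM in the Cxcr6 or Itga1 cells. They were also close for Xcl1, with 1064 CPM in the Eomes cells and 1109 CPM in the Cxcr6 or Itga1 cells. Ncr1 was 672 CPM in the Eomes cells and 674 CPM in the Cxcr6 or Itga1 cells. The rule chose both kinds of cells partly by Ncr1, so its levels are a description only.

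The Cxcr6 or Itga1 cells were 25.6% of NK cells in B12+Butyrate (11 of 43, exact 95% interval 13.5 to 41.2%), 17.1% in B12 (6 of 35, 6.56 to 33.6%), 17.0% in Butyrate (8 of 47, 7.65 to 30.8%) and 41.9% in Control (18 of 43, 27.0 to 57.9%). The Control share was the highest, and its interval overlaps those of the other libraries. After thinning to 2000 UMIs the shares were 23.3% in B12+Butyrate, 9.09% in B12, 10.9% in Butyrate and 24.4% in Control. The Eomes cells were 60.5% of NK cells in B12+Butyrate, 48.6% in B12, 48.9% in Butyrate and 34.9% in Control.

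**Figure D3:**
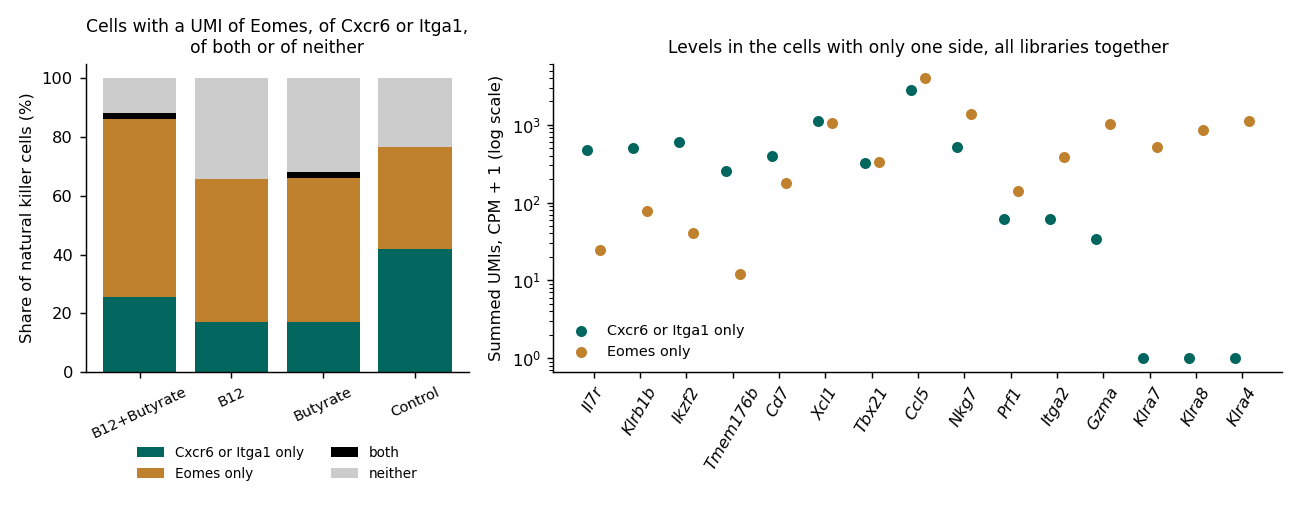
Share of NK cells (percent) with a UMI of Eomes only, of Cxcr6 or Itga1 only, of both or of neither, in the B12+Butyrate, B12, Butyrate and Control libraries. The Cxcr6 or Itga1 cells are 17.0 to 25.6% in the 3 treated libraries and 41.9% in Control.

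Ly49 genes differed in level and in how many cells held them. Over the NK cells of all 4 libraries, Klra4 was found in 60 cells and Klra8 in 66, and 41 cells held both. Klra9 was 166 CPM in B12+Butyrate, 187 in B12, 115 in Butyrate and 176 in Control, Klra3 was 194 CPM in B12+Butyrate, 83.6 in B12, 151 in Butyrate and 115 in Control and Klra1 was 111 CPM in B12+Butyrate, 139 in B12, 127 in Butyrate and 55.9 in Control, while Klra5 and Klra17 had no UMI. Klra9, Klra3 and Klra1 encode Ly49I, Ly49C and Ly49A, which act as inhibitory receptors. The order of levels was Klra4, Klra8, Klra7, and then the other members, in B12+Butyrate and Butyrate, while in B12 and Control Klra8 was at the head with an interval that overlapped that of Klra4. NK cells with no Ly49 UMI were 20.9% in B12+Butyrate, 31.4% in B12, 25.5% in Butyrate and 44.2% in Control and, after thinning, 27.9% in B12+Butyrate, 33.3% in B12, 32.6% in Butyrate and 48.8% in Control. Of T cells 95.2% had none after thinning. CD3+ NK-marker+ cells with none were, after thinning, 33.3% in B12+Butyrate, 37.1% in B12, 49.3% in Butyrate and 68.1% in Control.

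Within the Eomes cells alone, Klra4 was 1240.2 CPM in B12+Butyrate, 1178 in B12, 1238 in Butyrate and 781 in Control. Klra8 was 879.7 CPM in B12+Butyrate, 1214 in B12, 587 in Butyrate and 919 in Control in these cells, and Gzma was 1322 CPM in B12+Butyrate, 1340.1 in B12, 744 in Butyrate and 738 in Control. Control was thus the lowest library for Klra4 but not for Klra8 in the Eomes cells, and Gzma was higher there in both libraries with B12. In the cells with neither, Gzma was 49.6 CPM in B12+Butyrate, 1225 in B12, 280 in Butyrate and 1746 in Control, from 1 to 7 cells per library.

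**Figure D4:**
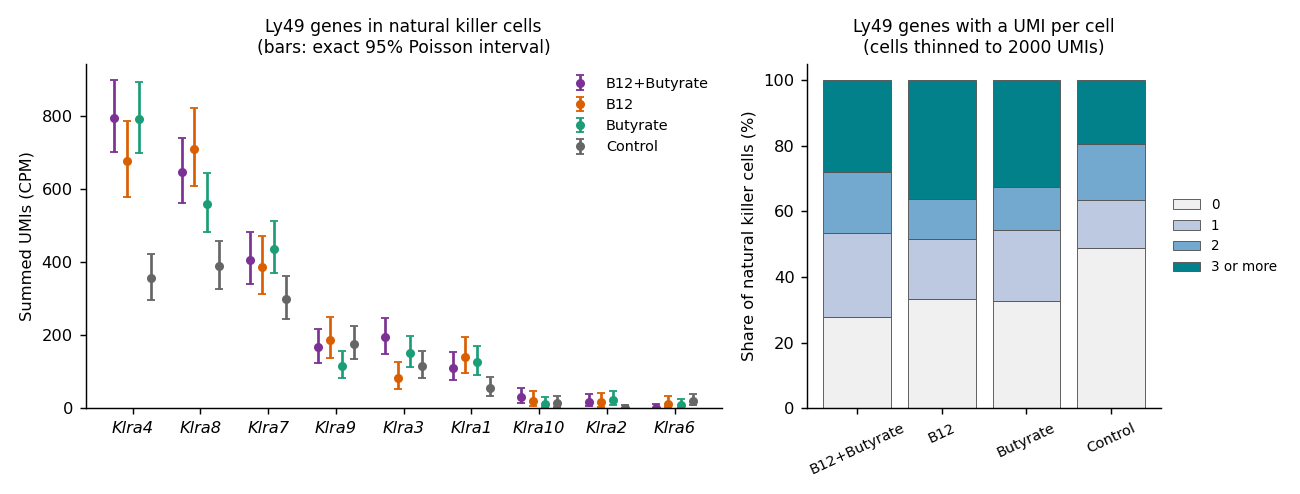
Ly49 (Klra) genes in NK cells: CPM of each gene in the 4 libraries with exact Poisson 95% intervals, and the share of NK cells (percent) with UMIs of 0, 1, 2, or 3 or more Ly49 genes after thinning to 2000 UMIs. Klra4 lies at 677 to 794 CPM in the 3 treated libraries and at 355 CPM in Control.

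Between treatments, few genes of the NK cells passed the fold limit, which was 1 log2 unit, with 10 CPM added, among 3771 genes with a mean of at least 50 CPM. For B12 over Control 72 genes (1.91%) were higher and 86 (2.28%) lower. For B12+Butyrate over Butyrate 41 (1.09%) were higher and 64 (1.70%) lower. For Butyrate over Control 39 (1.03%) were higher and 85 (2.25%) lower. For B12+Butyrate over B12 86 (2.28%) were higher and 154 (4.08%) lower. With B12, no gene (0.00%) was higher in both pairs and 7 (0.186%) were lower in both. With butyrate, 5 genes (0.133%) were higher in both pairs and 27 (0.716%) lower in both. In opposite directions in the 2 pairs, 17 genes (0.451%) passed with B12 and 7 (0.186%) with butyrate. These counts rest on sums over 35 to 47 cells of 1 library each, so the cells holding a gene or the share of UMIs from its richest cell are given with the genes below. Intervals given with them cover counting error only. Genes are named where at least 5 cells held a UMI in each library on the higher side.

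Tnfaip3, which encodes A20, a feedback inhibitor of NF-kB, was the most widely detected gene lower with B12 in both pairs. It was 117 (82.8 to 161) CPM in B12+Butyrate, 131 (90.4 to 184) in B12, 316 (259 to 382) in Butyrate and 294 (240.1 to 355) in Control (exact Poisson 95% intervals). The B12+Butyrate and B12 libraries lay below the other libraries with no overlap of intervals. The log2 ratio was -1.10 for B12 over Control and -1.36 for B12+Butyrate over Butyrate. The gene was found in 20 cells in B12+Butyrate, 15 in B12, 35 in Butyrate and 29 in Control, and the richest cell gave at most 15.2% of a library's UMIs. In cells thinned to 2000 UMIs the B12 over Control ratio was -0.36. In T cells Tnfaip3 was 168 CPM in B12+Butyrate, 225 in B12, 258 in Butyrate and 221 in Control, and in CD3+ NK-marker+ cells 139 CPM in B12+Butyrate, 139 in B12, 263 in Butyrate and 195 in Control. In the Eomes cells alone Tnfaip3 was 111 CPM in B12+Butyrate, 153 in B12, 238 in Butyrate and 174 in Control, so B12 and Control lay close there. Of 10 NF-kB genes measured, Tnfaip3 was the only member past the fold limit downward in both B12 pairs, and the list's median log2 ratios were -0.25 for B12 over Control, 0.24 for B12+Butyrate over Butyrate, 0.14 for Butyrate over Control and 0.19 for B12+Butyrate over B12.

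Ccl3, which encodes the chemokine MIP-1α, was 18.5 (6.78 to 40.2) CPM in B12+Butyrate, 39.8 (19.1 to 73.2) in B12, 85.6 (57.3 to 123) in Butyrate and 109 (77.5 to 149) in Control. It was lowest in B12+Butyrate and highest in Control, with log2 ratios of -1.26 for B12 over Control and -1.75 for B12+Butyrate over Butyrate. It was found in 4 cells in B12+Butyrate, 6 in B12, 13 in Butyrate and 16 in Control, and the richest cell gave at most 40.0% of a library's UMIs, in B12. In the Eomes cells alone Ccl3 was 4.81 CPM in B12+Butyrate, 63.0 in B12, 81.4 in Butyrate and 86.8 in Control. Prtn3 and Elane, which encode neutrophil serine proteases, turned direction in B12+Butyrate over Butyrate when cells of 1 marker UMI were added, and 1 Control cell held 96.5% of the Prtn3 and 98.0% of the Elane UMIs of that library. A further 2 of the 7 genes were found in fewer than 5 cells of a library on the higher side. Of 10 cytokine genes measured, the list's median log2 ratios were -0.43 for B12 over Control, -0.19 for B12+Butyrate over Butyrate, -0.28 for Butyrate over Control and -0.42 for B12+Butyrate over B12.

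Dscam, which encodes an adhesion molecule of the immunoglobulin superfamily known from neurons, was the most abundant gene higher with butyrate in both pairs. It was 665 (579 to 759.9) CPM in B12+Butyrate, 310.4 (245 to 387) in B12, 514 (440.2 to 596) in Butyrate and 139.8 (104 to 184) in Control, found in 23 cells in B12+Butyrate, 12 in B12, 21 in Butyrate and 13 in Control. Both butyrate libraries lay above the other libraries, with a log2 ratio of 1.81 for Butyrate over Control and 1.08 for B12+Butyrate over B12. The richest cell held at most 37.2% of a library's Dscam UMIs, in B12. In the Eomes cells alone Dscam was 433 CPM in B12+Butyrate, 396 in B12, 407 in Butyrate and 123 in Control, so B12+Butyrate and B12 lay close there. In T cells Dscam was 189.7 CPM in B12+Butyrate, 86.6 in B12, 109 in Butyrate and 129 in Control.

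Luzp1, which encodes a cytoskeletal leucine zipper protein, was 95.4 (64.9 to 135) CPM in B12+Butyrate, 39.8 (19.1 to 73.2) in B12, 124 (89.4 to 168) in Butyrate and 33.5 (17.3 to 58.6) in Control, with log2 ratios of 1.62 for Butyrate over Control and 1.08 for B12+Butyrate over B12. It was found in 15 cells in B12+Butyrate, 7 in B12, 18 in Butyrate and 7 in Control, and the richest cell gave at most 33.3% of a library's UMIs, in Control. Dym, which encodes the Golgi protein dymeclin, was 132 (95.8 to 178) CPM in B12+Butyrate, 51.7 (27.5 to 88.5) in B12, 156 (117 to 205) in Butyrate and 72.7 (47.5 to 107) in Control, and in T cells 109 CPM in B12+Butyrate, 108 in B12, 115 in Butyrate and 104 in Control. In NK cells Dym was found in 25 cells in B12+Butyrate, 10 in B12, 30 in Butyrate and 18 in Control, and the richest cell gave at most 23.1% of a library's UMIs, in B12. The predicted gene Gm20528 was 148 CPM in B12+Butyrate, 51.7 in B12, 79.7 in Butyrate and 14.0 in Control in NK cells and 2.30 CPM in B12+Butyrate, 1.66 in B12, 7.40 in Butyrate and 8.68 in Control in T cells. In NK cells it was found in 14 cells in B12+Butyrate, 8 in B12, 11 in Butyrate and 5 in Control, and the richest cell gave at most 38.5% of a library's UMIs, in B12. Gm20528 was 109.6 CPM in the Eomes cells and had no UMI in the Cxcr6 or Itga1 cells. In the Eomes cells alone it was 187 CPM in B12+Butyrate, 98.9 in B12, 87.2 in Butyrate and 28.9 in Control, so Control was the lowest there too, and B12 lay above Butyrate. Adgrl4, which encodes an adhesion G protein-coupled receptor, was 70.8 CPM in B12+Butyrate, 27.9 in B12, 159 in Butyrate and 53.1 in Control, and 1 cell gave 68.5% of its UMIs in Butyrate. Its direction for Butyrate over Control turned with thinned cells and with a limit of 3 marker UMIs.

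Of the 27 genes lower with butyrate in both pairs, 16 met that condition on cells, and the 10 with the largest smaller ratio are named here. Hdac9, which encodes a class IIa histone deacetylase, was 27.7 (12.7 to 52.6) CPM in B12+Butyrate, 147 (104 to 203) in B12, 44.3 (24.8 to 73.0) in Butyrate and 305 (250.2 to 368) in Control, found in 3 cells in B12+Butyrate, 9 in B12, 5 in Butyrate and 19 in Control. Its log2 ratio was -2.54 for Butyrate over Control and -2.06 for B12+Butyrate over B12. In the Eomes cells alone it was 4.81 CPM in B12+Butyrate, 89.9 in B12, 23.2 in Butyrate and 188 in Control. With the cells of 1 marker UMI added, the log2 ratio of Hdac9 turned to 0.27 for Butyrate over Control and 0.12 for B12+Butyrate over B12. In T cells Hdac9 was 90.8 CPM in B12+Butyrate, 166 in B12, 232 in Butyrate and 90.9 in Control, and in B cells 440.1 CPM in B12+Butyrate, 318 in B12, 447 in Butyrate and 472 in Control. Cst3, which encodes the protease inhibitor cystatin C and is abundant in dendritic and myeloid cells, was 102 CPM in B12+Butyrate, 1035 in B12, 201 in Butyrate and 1099 in Control, with 78.5% of the B12 UMIs and 41.2% of the Control UMIs in 1 cell each. The direction of Cst3, Mpo, Cks2, Napsa, Stmn1, Mrpl23 and Rgcc turned in at least 1 pair when cells of 1 marker UMI were added or cells were thinned. Mrpl23, a mitochondrial ribosomal protein gene, was 58.5 CPM in B12+Butyrate, 143 in B12, 50.2 in Butyrate and 129 in Control. It was found in 14 cells in B12+Butyrate, 13 in B12, 11 in Butyrate and 23 in Control, and the richest cell gave at most 41.7% of a library's UMIs, in B12. Napsa, an aspartic protease gene, was 43.1 CPM in B12+Butyrate, 163 in B12, 65.0 in Butyrate and 193 in Control. It was found in 8 cells in B12+Butyrate, 9 in B12, 10 in Butyrate and 17 in Control, and the richest cell gave at most 63.4% of a library's UMIs, in B12. In Mpo 1 Control cell held 92.4% of the library's UMIs, in Plac8 1 cell held 56.2 to 90.7% of each library's UMIs, in Stmn1 1 B12 cell held 89.5%, in Cks2 1 B12 cell held 75.0% and in Rgcc 1 Control cell held 82.5%. Gm2a, which encodes a lysosomal lipid transfer protein, was 24.6 CPM in B12+Butyrate, 123 in B12, 38.4 in Butyrate and 182 in Control. It was found in 5 cells in B12+Butyrate, 8 in B12, 8 in Butyrate and 5 in Control, and the richest cell gave at most 45.2% of a library's UMIs, in B12.

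**Figure D5:**
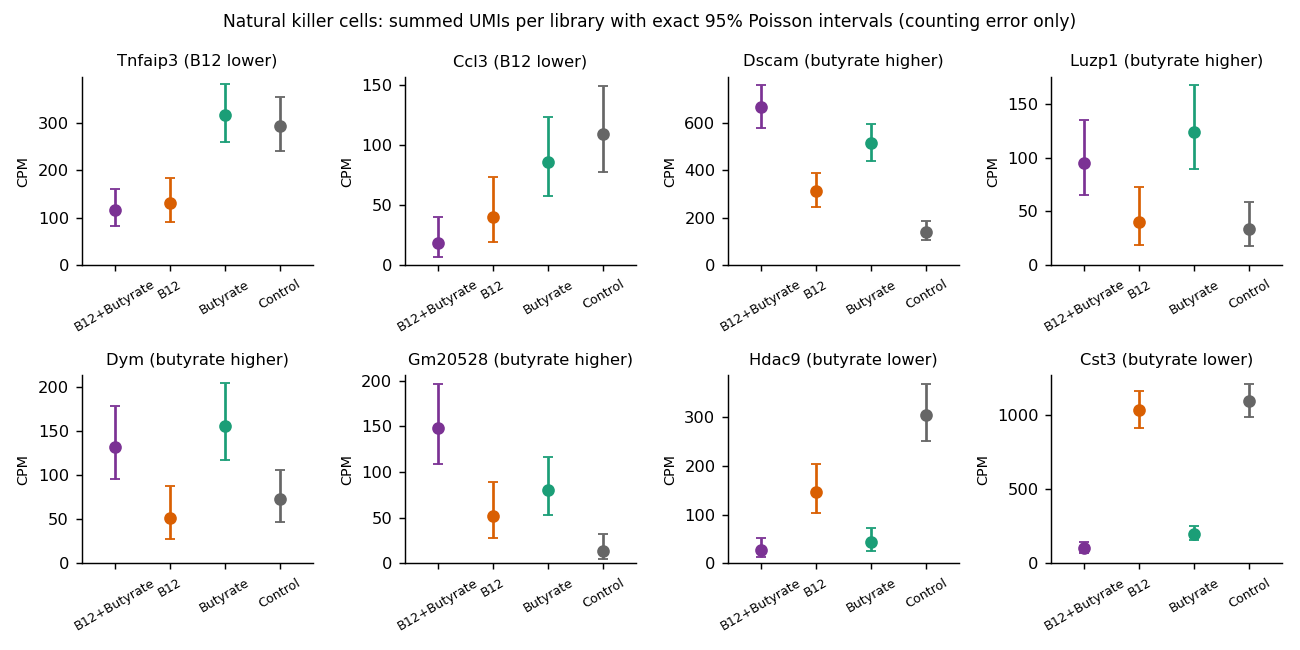
Level (CPM, with exact Poisson 95% intervals) of Tnfaip3, Ccl3, Dscam, Luzp1, Dym, Gm20528, Hdac9 and Cst3 in NK cells of the B12+Butyrate, B12, Butyrate and Control libraries. Tnfaip3 and Ccl3 lie lower in both libraries with B12, the next 4 genes lie higher and the last 2 lower in both libraries with butyrate.

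At a mean of at least 10 CPM, 4.39% of 8550 genes were past the fold limit upward and 4.33% downward for B12 over Control, 3.11% and 4.40% for B12+Butyrate over Butyrate, 3.09% and 4.09% for Butyrate over Control, and 4.20% and 6.57% for B12+Butyrate over B12. The median log2 ratio of all these genes was 0.01 for B12 over Control, 0.02 for B12+Butyrate over Butyrate, -0.01 for Butyrate over Control and -0.01 for B12+Butyrate over B12. The 17 granule and death ligand genes had median log2 ratios of -0.06 for B12 over Control, 0.09 for B12+Butyrate over Butyrate, 0.12 for Butyrate over Control and 0.33 for B12+Butyrate over B12. Past the limit were 0 upward and 0 downward for B12 over Control, 1 upward and 1 downward for B12+Butyrate over Butyrate, 2 upward and 0 downward for Butyrate over Control, and 2 upward and 1 downward for B12+Butyrate over B12. Gzma was 0.55 for B12 over Control, 0.83 for B12+Butyrate over Butyrate, -0.35 for Butyrate over Control and -0.07 for B12+Butyrate over B12 on the log2 ratio scale. The 9 Ly49 genes had medians of 0.36 for B12 over Control, 0.01 for B12+Butyrate over Butyrate, 0.51 for Butyrate over Control and 0.07 for B12+Butyrate over B12, so the 2 pairs with Control gave the higher values. Past the limit were 2 upward and 0 downward for B12 over Control, 0 upward and 0 downward for B12+Butyrate over Butyrate, 3 upward and 0 downward for Butyrate over Control, and 1 upward and 1 downward for B12+Butyrate over B12. Upward in both pairs with Control were Klra1 and Klra2, and Klra2 had 6 UMIs in B12+Butyrate, 4 in B12, 8 in Butyrate and 0 in Control. Klra4 had log2 ratios of 0.91 for B12 over Control and 1.13 for Butyrate over Control, beside 0.01 for B12+Butyrate over Butyrate and 0.23 for B12+Butyrate over B12. The 11 lectin-like receptor genes had medians of 0.38 for B12 over Control, 0.22 for B12+Butyrate over Butyrate, 0.42 for Butyrate over Control and 0.38 for B12+Butyrate over B12. Past the limit were 2 upward and 1 downward for B12 over Control, 0 upward and 0 downward for B12+Butyrate over Butyrate, 1 upward and 0 downward for Butyrate over Control, and 1 upward and 0 downward for B12+Butyrate over B12. Of 8 checkpoint receptor genes, which encode inhibitory receptors such as Cd96 and Cd200r1, 4 were measured, with medians of -0.87 for B12 over Control, -0.19 for B12+Butyrate over Butyrate, 0.18 for Butyrate over Control and 0.63 for B12+Butyrate over B12. Past the limit were 0 upward and 2 downward for B12 over Control, 0 upward and 0 downward for B12+Butyrate over Butyrate, 0 upward and 0 downward for Butyrate over Control, and 1 upward and 0 downward for B12+Butyrate over B12. Cd200r1 was 89.3 CPM in B12+Butyrate, 23.9 in B12, 88.6 in Butyrate and 72.7 in Control, and in the Eomes cells it was scarce, with 12.7 CPM. The 2 comparisons with Control share the Control library, so their values are not independent of each other.

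The 14 class I MHC genes had median log2 ratios of 0.05 for B12 over Control, 0.01 for B12+Butyrate over Butyrate, 0.25 for Butyrate over Control and 0.11 for B12+Butyrate over B12, and none of them passed the limit in any pair. The 20 activating receptor and adaptor genes had medians of 0.17 for B12 over Control, 0.12 for B12+Butyrate over Butyrate, 0.09 for Butyrate over Control and 0.11 for B12+Butyrate over B12. The 20 cytokine receptor and JAK-STAT genes had medians of 0.22 for B12 over Control, 0.10 for B12+Butyrate over Butyrate, 0.03 for Butyrate over Control and 0.04 for B12+Butyrate over B12. The 9 cobalamin and one-carbon genes, which use or depend on the vitamin given, had medians of 0.07 for B12 over Control, -0.13 for B12+Butyrate over Butyrate, -0.22 for Butyrate over Control and -0.17 for B12+Butyrate over B12. The 17 immature and ILC1-leaning genes had medians of -0.29 for B12 over Control, 0.17 for B12+Butyrate over Butyrate, 0.24 for Butyrate over Control and 0.54 for B12+Butyrate over B12, and the 18 interferon response genes of 0.09 for B12 over Control, -0.21 for B12+Butyrate over Butyrate, -0.08 for Butyrate over Control and -0.41 for B12+Butyrate over B12. The 16 DNA replication and mitosis genes had wider medians, of 0.84 for B12 over Control, -0.78 for B12+Butyrate over Butyrate, -0.36 for Butyrate over Control and -2.06 for B12+Butyrate over B12. The B12 level of Mki67 (183 CPM) came from 1 cell. Of the UMIs of the whole list, 1 cell gave 6.30% in B12+Butyrate, 67.0% in B12, 30.8% in Butyrate and 19.3% in Control. The 17 transcription factor genes had medians of -0.09 for B12 over Control, 0.10 for B12+Butyrate over Butyrate, 0.10 for Butyrate over Control and 0.24 for B12+Butyrate over B12, the 12 late maturation genes of 0.31 for B12 over Control, -0.14 for B12+Butyrate over Butyrate, 0.18 for Butyrate over Control and -0.29 for B12+Butyrate over B12, and the 9 heat shock genes of 0.60 for B12 over Control, 0.06 for B12+Butyrate over Butyrate, 0.17 for Butyrate over Control and -0.08 for B12+Butyrate over B12.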

How the data were processed

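Each of the 4 libraries is a 10x 3' v3.1 matrix of whole-number UMI counts per gene and barcode, deposited by the authors. Per the file headers the software was Cell Ranger 7.1.0, and per the submitters' processing notes the build was GRCm39. The files list 33696 genes and 34670 barcodes, of which 31209 passed the filter; the samples were grouped by their labelled treatment. The NK rule, the gene lists and the split by Eomes, Cxcr6 and Itga1 were chosen with earlier results of these data known. UMIs were summed per library and cell type and scaled to CPM over all genes, with exact Poisson intervals; shares have exact Clopper-Pearson intervals, and thinning drew 2000 UMIs per cell with a fixed seed. Treatment pairs were compared by log2 ratios with 10 CPM added and have no test. Cell types were compared in edgeR 4.0.16 (R 4.3.3), with the library as a block and a threshold of 0.05 on the Benjamini-Hochberg adjusted p; DESeq2 1.42.0 was an alternative. The procedure was tested on simulated counts. Named genes for cell types are the 15 per direction with the largest fold among those called, in the same direction in all 4 libraries and at 100.0 CPM or more in the higher type, besides listed genes; for treatments the 10 per direction described with the results. Some genes that these rules name are not reported here. B cells are cells with 2 or more Cd79a UMIs. Doublets were scored from simulated pairs and kept. Python 3.11.15 was used for the rest.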

Additional observations from a re-analysis of the deposited data

Results flagged for a closer look

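Some genes passed the fold limit in opposite directions in the 2 pairs of a treatment. For B12 these were 17 genes, with B12 over Control and B12+Butyrate over Butyrate pointing different ways, and for butyrate 7 genes, with Butyrate over Control and B12+Butyrate over B12 pointing different ways. With 1 library per group the difference between the pairs was not tested. Cxcr6, Arhgap5, Hlcs, Plcb1 and F13a1 were on both lists. Plcb1 was found in 1 cell in B12+Butyrate, 2 in B12, 4 in Butyrate and 1 in Control. In B12 1 cell held 93.3% of the Plcb1 UMIs. F13a1 was found in 3 or 4 cells per library, and 1 cell held 54.5 to 92.6% of each library's UMIs. Cxcr6 was 102 CPM in B12+Butyrate, 43.8 in B12, 44.3 in Butyrate and 112 in Control, found in 11 cells in B12+Butyrate, 4 in B12, 7 in Butyrate and 13 in Control. Hlcs, which encodes the enzyme that attaches biotin to carboxylases, was 95.4 CPM in B12+Butyrate, 15.9 in B12, 23.6 in Butyrate and 78.3 in Control, found in 14 cells in B12+Butyrate, 3 in B12, 6 in Butyrate and 13 in Control. The class II MHC genes H2-Aa, H2-Ab1, H2-Eb1 and Cd74 were on the B12 list, and Cd74 was 520.3 CPM in B12+Butyrate, 501 in B12, 216 in Butyrate and 1484 in Control, with 77.5% of the B12+Butyrate UMIs in 1 cell. Mki67, Stmn1 and H1f5 were also on it, and 1 cell gave 89.5% of the Stmn1 UMIs of the B12 library. The B12 UMIs of Mki67 and of H1f5 came from 1 cell for each gene.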

How the results depend on the processing

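Shares of NK cells changed least: of 36 recomputed ratios, 34 moved by less than their counting error. The exceptions used NK and T cells together as the base, where the log2 ratio of shares became 1.05 for B12 over Control and 0.48 for B12+Butyrate over Butyrate. Of 1144 recomputed list medians 97 moved beyond their spread and 130 had the other sign, and of 500 values of named genes 31 had the other sign.

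Of 96 recomputed counts of genes past the fold limit, 45 stayed within 1.5 times and 51 did not. With equal weight for each cell all 8 counts stayed within it. For B12 over Control, cells of 1 marker UMI added gave 15 higher and 37 lower genes, no limit on Camp and Ngp 45 and 54, cells thinned to 2000 UMIs 355 and 372, 50 CPM added in place of 10 gave 18 and 25, a mean of 20 CPM or more 213 and 239, and a mean of 100 CPM or more 22 and 29. For B12+Butyrate over Butyrate they were 22 and 27 with cells of 1 marker UMI, 62 and 124 with no limit on Camp and Ngp, 41 lower without called doublets, 268 and 222 in thinned cells, 68 and 110 with 1 CPM added, 8 and 16 with 50 CPM added, 174 and 214 at a mean of 20 CPM, and 14 and 20 at 100 CPM. For Butyrate over Control they were 36 lower with cells of 1 marker UMI, 47 lower with no limit on Camp and Ngp, 62 and 134 without called doublets, 238 and 324 in thinned cells, 75 higher with 1 CPM added, 13 and 28 with 50 CPM added, 157 and 217 at a mean of 20 CPM, and 18 and 26 at 100 CPM. For B12+Butyrate over B12 they were 38 and 37 with cells of 1 marker UMI, 314 and 328 in thinned cells, 130 higher with 1 CPM added, 13 and 53 with 50 CPM added, 234 and 358 at a mean of 20 CPM, and 22 and 61 at 100 CPM. Counts not given moved by less than 1.5 times. The genes counted also changed, from 3771 in the main setting. They were 3846 with cells of 1 marker UMI and 3708 with no limit on Camp and Ngp. They were 3737 without called doublets and 3720 in thinned cells. At a mean of 20 CPM they were 6555 and at 100 CPM 2010, so the counts have different bases. The cause of the changes with added cells, doublets and the Camp and Ngp limit was not tested.

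Against T cells, DESeq2 called 336 of 6670 genes higher and 334 lower in NK cells. Thinned cells gave 312 and 282 of 3088, and without a filter on low counts 933 of 18878 were lower. Without 1 library at a time, 393 to 536 were higher and 421 to 579 lower. Against CD3+ NK-marker+ cells, DESeq2 called 89 of 5463 genes higher and 94 lower, and no filter gave 292 and 289 of 16638. Thinned cells gave 94 of 1701 higher, and cells with few myeloid UMIs gave 112 of 3723 lower. Without 1 library at a time 122 to 221 were higher and 94 to 198 lower, and the lowest counts, 122 and 94, were those without Control. The library block pairs cell types of the same library: with no replicate block 521 genes were higher and 533 lower than in T cells, and 147 and 140 than in CD3+ NK-marker+ cells. Between treatments, no block could be fitted. No paired analysis was possible because each treatment group is 1 library, which concerns the treatment pairs alone.

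Single genes turned direction under some settings. With cells of 1 marker UMI added the log2 ratio for B12+Butyrate over Butyrate became 1.44 for Prtn3 and 4.54 for Elane. With the same cells it became 0.058 for Cst3, 0.27 for Hdac9 and 0.043 for Stmn1 for Butyrate over Control, and 0.12 for Hdac9, 1.67 for Mpo, 0.18 for Cks2 and 0.49 for Rgcc for B12+Butyrate over B12. In thinned cells it became 1.06 for Prtn3 (B12+Butyrate over Butyrate), -0.045 for Adgrl4, 1.03 for Napsa, 0.42 for Mrpl23 and 2.37 for Rgcc (Butyrate over Control), and 0.80 for Cks2 and 0.85 for Rgcc (B12+Butyrate over B12). For Butyrate over Control, Adgrl4 became -0.14 with at least 3 marker UMIs and Rgcc 0.025 with equal weight for each cell. With 35 to 47 cells per library, depth limits the treatment pairs to differences well above counting error and leaves differences between mice unmeasured.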
